A study of Rattus norvegicus with 30 samples.

Results

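The comparison described here is that of DEX-6h with SAP-6h, which asks what 1 dose of dexamethasone (DEX) changed in the lungs of rats with severe acute pancreatitis (SAP). The members were chosen by group label alone, and they are 6 of the 30 libraries of the study, 3 rats in each group. All 6 rats were male Sprague Dawley rats of 8 weeks and 180 to 220 g, fasted for 12 h and anaesthetised with pentobarbital. In all 6, the biliopancreatic duct was infused backwards with 5% sodium taurocholate, a bile salt by which pancreatitis is induced. The DEX-6h rats then received DEX into a vein at 10 mg/kg, 2 h after the operation, while the SAP-6h rats received the same volume of saline. Both groups also received carboxymethylcellulose sodium into the stomach, the vehicle of emodin. Lungs were taken at 6 h, thus 4 h after the dose, and polyadenylated RNA of a part of the lung, whose vessels had been flushed with saline, was sequenced. Further libraries used beside these are Sham-6h (the pancreas was only moved), Emo-6h (taurocholate, then emodin into the stomach at 2 h) and the pair DEX-24h and SAP-24h (the same design, with another dose at 12 h and lungs taken at 24 h). An alternative model of the 6 h groups also held Con-6h, whose rats received saline in place of taurocholate. The dose of emodin is given as 40 mg/kg in the protocol label and as 10 mg/kg in the sample descriptions.

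DEX is a synthetic glucocorticoid. It binds the glucocorticoid receptor (Nr3c1), which then enters the nucleus, raises transcription at its own DNA sites and lowers transcription driven by inflammatory factors such as NF-kB and AP-1. In lung, glucocorticoids are known to induce feedback genes such as Fkbp5, Tsc22d3 and Per1 and sodium transport genes such as Sgk1, and to lower cytokines and chemokines.

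The DEX-6h libraries held 29465825 to 32834792 reads on genes and the SAP-6h libraries 16813949 to 34692306, so that counting error was small beside the spread between rats. Reads were found on 17453 to 18648 genes. In the study's mapping summary, a smaller share of reads mapped uniquely in SAP-6h, DEX-6h and Emo-6h than in Sham-6h. The part of this in the values set beside Sham-6h was not tested. Counts of rats of a group differed more than counting error allows, with a chi-square per degree of freedom of 66.9 to 83.3 in DEX-6h and 39.8 to 51.8 in SAP-6h. The labels give each library as a rat of its own. The p-values of single genes thus rest on the spread between rats within groups, shared over all 30 libraries of the model. The lung label held: the surfactant protein gene Sftpc, which marks alveolar type 2 cells, stood between 19297 and 27866 FPKM (fragments scaled to gene length and sequencing depth) in the 6 libraries. Markers of blood and heart varied between libraries. The 9 heart muscle markers that were tested (of 10) summed to 260, 33.8 and 327 FPKM in DEX-6h and to 8.19, 204 and 199 in SAP-6h, with no marker at 0 in all 6 libraries. The 6 red blood cell markers tested (of 9) summed to 4026, 6198 and 769 FPKM in DEX-6h and to 6273, 8146 and 9532 in SAP-6h, and their part in the results was not tested. On the first principal component of the 6 libraries, which held 30.2% of the variance, the scores were 38.3, 15.9 and 24.9 in DEX-6h and -1.34, -35.3 and -42.5 in SAP-6h. The groups did not overlap on it (exact permutation test, two-sided, p = 0.1, the smallest that 3 against 3 allows).

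Few genes passed the test for a change with DEX at 6 h. Of 15934 genes tested, 43 rose (0.27%) and 39 fell (0.245%) in DEX-6h, taking as differentially expressed genes (DEGs) those with an adjusted p under 0.05 and a change of at least 2-fold (edgeR quasi-likelihood, 0.515% in both directions). Most changes were moderate, since 37 of the 43 and 30 of the 39 DEGs were below 4-fold. The median log2 fold change was 1.30 over the up-regulated and -1.31 over the down-regulated DEGs, against -0.02 over all genes tested. At an unadjusted p under 0.05 and any fold, 911 genes were higher (5.72%) and 1016 lower (6.38%). At an adjusted p without a limit on the fold, 87 genes were higher (0.546%) and 69 lower (0.433%). The DEGs comprised 79 protein-coding genes, 2 long non-coding RNAs, both lower, and 1 gene of another type.

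**Figure D1:**
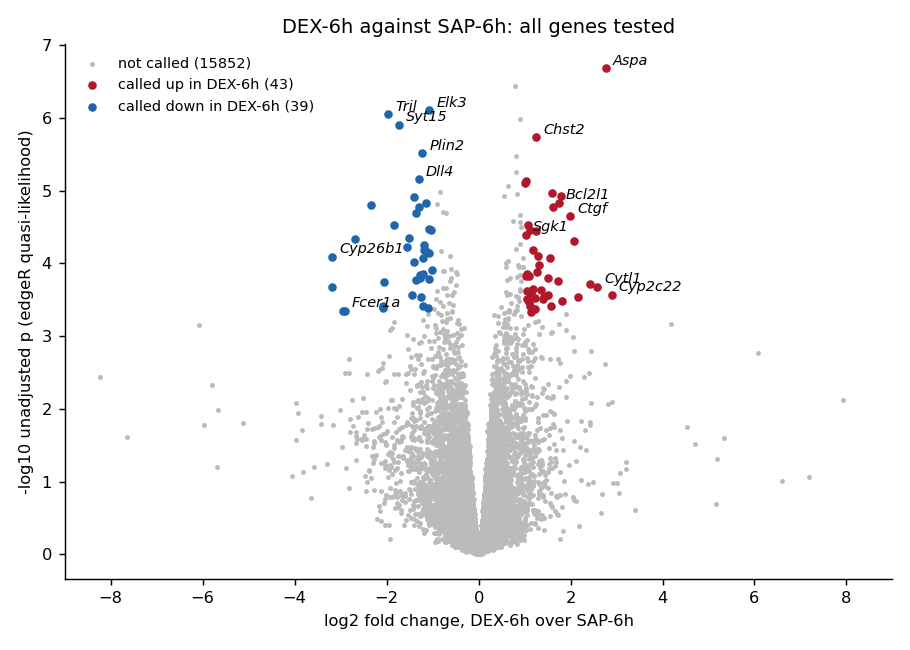
Each point is 1 of the 15934 genes tested, with its log2 fold change of DEX-6h over SAP-6h on the x axis and -log10 of its unadjusted p on the y axis. The 43 up-regulated and 39 down-regulated DEGs are coloured, and Aspa has the lowest p of all genes.

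The number of calls moved with the libraries entered, while the fold changes moved less. All 82 DEGs had FPKM ranges that did not overlap between the 2 groups (8.75% of all genes tested were higher in this way and 8.74% lower). All 82 kept their sign in each of the 6 fits that left out 1 library, which values that do not overlap already fix. The smallest log2 fold change of a gene over these fits was, in the median, 87.0% of that with all 6 libraries, and at least 71.2% for 81 of the 82 DEGs. The exception was Tmcc3, named after its values were seen, which fell from log2 1.10 to 0.50. The calls fell to 9 without replicate 1 of DEX-6h, to 23 without replicate 3 of DEX-6h, to 6 without replicate 2 of SAP-6h and to 15 without replicate 3 of SAP-6h. They numbered 90 without replicate 2 of DEX-6h and 80 without replicate 1 of SAP-6h. Only Aspa, Syt15, Tril and Plin2 remained DEGs in all 6 of these fits, and 12 of the 82 remained DEGs in none. Calls also moved with the groups that entered the model. Of the DEGs named here, Il15, Rdh16, Dll4, Tnfsf10, Tmcc3, Arhgap20 and both lncRNAs lost their calls in a model of the 6 libraries alone. Il15, Ltc4s, Ramp3, Sox18, Fcer1a, Tmcc3 and Arhgap20 lost theirs in a model of the 6 h groups. Replicate 2 of SAP-6h is the deepest and replicate 3 the shallowest library of the 6.

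**Figure D2:**
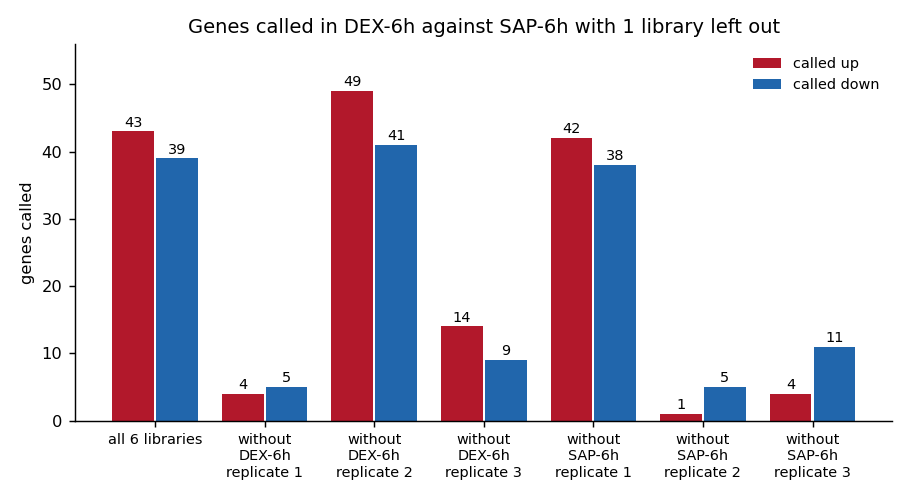
The bars count the up-regulated and down-regulated DEGs of DEX-6h against SAP-6h on the y axis, with all 6 libraries and with each library left out in turn on the x axis. Leaving out replicate 2 of SAP-6h left 1 up-regulated and 5 down-regulated genes.

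Aspa, which encodes aspartoacylase, the enzyme that cleaves N-acetylaspartate to acetate and aspartate, had the lowest p of all genes. Its level was 33.7, 35.9 and 30.6 FPKM in DEX-6h and 6.73, 4.51 and 3.29 FPKM in SAP-6h. The lowest DEX-6h rat thus stood far above the highest SAP-6h rat, and the log2 fold change was 2.77 (SE 0.38, adjusted p = 0.00293). The Sham-6h mean was 4.08 FPKM, near that of SAP-6h. Cytl1, which encodes a small secreted cytokine-like protein, was at 274, 290 and 555 FPKM against 67.9, 82.0 and 34.2 FPKM (log2 fold change 2.58, SE 0.59, adjusted p = 0.0347). Doc2b, a calcium sensor of vesicle exocytosis, stood at 10.3, 9.50 and 14.8 FPKM against 2.63, 1.84 and 1.85 FPKM (log2 fold change 2.43, adjusted p = 0.0327). The largest fold change among the up-regulated genes belonged to Cyp2c22, a cytochrome P450 gene, with log2 2.89 (SE 0.68, adjusted p = 0.0379), from levels of 0.82, 1.15 and 1.04 FPKM against 0.16, 0.16 and 0.06 FPKM. These genes lie on chromosomes 10 (Aspa and Doc2b), 14 (Cytl1) and 1 (Cyp2c22). Aspa alone of the 4 kept its call in every fit with 1 library left out. Cytl1 and Doc2b kept theirs only without replicate 2 of DEX-6h, and Cyp2c22 in no such fit.

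Genes with roles in cell survival, matrix and vessels were also among the up-regulated DEGs. Bcl2l1, which encodes the anti-apoptotic protein Bcl-xL, was at 185, 139 and 173 FPKM in DEX-6h and at 59.2, 35.1 and 52.9 FPKM in SAP-6h (log2 fold change 1.74, SE 0.32, adjusted p = 0.0103). Its processed copy Bcl2l1-ps1 was called as well (log2 2.08), but reads of the copy and of the gene may not be separable, so the call of the copy is uncertain. Ctgf, a secreted matrix protein induced in many forms of injury, rose to 101, 98.4 and 200 FPKM from 29.6, 30.9 and 38.5 FPKM (log2 fold change 1.99, SE 0.38, adjusted p = 0.0116). Unlike Aspa, its SAP-6h level lay below that of Sham-6h, at means of 33.0 and 76.3 FPKM, though that difference did not pass the test (log2 -1.17, adjusted p = 0.155). Tinagl1, an extracellular matrix protein, was at 219, 129 and 171 FPKM against 70.3, 42.5 and 56.2 FPKM (log2 fold change 1.61, adjusted p = 0.0103). Ramp3, which turns the calcitonin-like receptor into an adrenomedullin receptor, was at 241, 213 and 180 FPKM against 85.8, 38.4 and 65.7 FPKM (log2 fold change 1.73, adjusted p = 0.0304). Sham-6h held a mean of 17.1 FPKM of Ramp3, and SAP-6h was already above it (log2 1.95, adjusted p = 0.0361, in a comparison that called 0.22% of all genes). For all of these genes the DEX-6h rats lay above the SAP-6h rats without overlap. Bcl2l1 and Tinagl1 lost their calls without replicate 1 of DEX-6h and without replicate 2 or 3 of SAP-6h, and Ctgf without replicate 3 of DEX-6h and the same 2 SAP-6h libraries. Ramp3 kept its call only without replicate 1 of SAP-6h.

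Several up-regulated genes encode enzymes. Ltc4s, leukotriene C4 synthase, was at 16.8, 13.1 and 17.2 FPKM against 6.91, 6.88 and 5.5 FPKM (log2 fold change 1.27, SE 0.28, adjusted p = 0.0285), and at a mean of 12.6 FPKM in Sham-6h. Rdh16, a retinol dehydrogenase, was at 3.33, 2.42 and 3.32 FPKM against 1.28, 0.53 and 0.78 FPKM (log2 fold change 1.79, adjusted p = 0.0096). Both were higher in every DEX-6h rat than in any SAP-6h rat. Ltc4s kept its call in 2 of the 6 fits with a library left out and Rdh16 in 3, and Ltc4s was not called in the model of the 6 h groups. Both lost it without replicate 1 of DEX-6h and without replicate 2 or 3 of SAP-6h. Chst2, a sulfotransferase named after its values were seen, lost its call only without replicate 2 of SAP-6h, and was at 19.0, 17.1 and 17.1 FPKM against 8.82, 6.30 and 7.12 FPKM (log2 fold change 1.25, SE 0.20, adjusted p = 0.00421).

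Trim63 encodes MuRF1, a muscle ubiquitin ligase that glucocorticoids are known to induce in muscle. It was at 7.36, 6.88 and 11.6 FPKM in DEX-6h and at 2.44, 2.96 and 1.87 FPKM in SAP-6h (log2 fold change 1.81, SE 0.43, adjusted p = 0.0417), and it kept this call only without replicate 2 of DEX-6h. Heart muscle also expresses Trim63, and the heart marker sums in the same order were 260, 33.8 and 327 FPKM in DEX-6h and 8.19, 204 and 199 FPKM in SAP-6h. Their part in the level of Trim63 was not tested. Its promoter is shown because it was the only one among the DEGs with the letters of a full glucocorticoid receptor site. RefSeq promoters of build GRCr8 (300 bases, from 250 before the start) were matched for 29 of the 43 up-regulated and 27 of the 39 down-regulated genes. The full site (AGAACA, then NNN, then TGTTC) was searched on both strands, and so was AGAACA alone, which lies within it. The full site was found in 2 of the 11475 promoters of tested genes (0.0174%), those of Trim63 and of Tlr6, and the latter gene was not called (log2 -0.11, adjusted p = 0.957). AGAACA alone occurred in 2 of the 29 promoters of up-regulated genes (6.9%, Trim63 and Ltc4s), in 5 of the 27 of down-regulated genes (18.5%) and in 12.8% of those of all tested genes. The promoter of Trim63 lies at chr5:151816986-151817285 on the plus strand, with the full site in capitals.
Trim63: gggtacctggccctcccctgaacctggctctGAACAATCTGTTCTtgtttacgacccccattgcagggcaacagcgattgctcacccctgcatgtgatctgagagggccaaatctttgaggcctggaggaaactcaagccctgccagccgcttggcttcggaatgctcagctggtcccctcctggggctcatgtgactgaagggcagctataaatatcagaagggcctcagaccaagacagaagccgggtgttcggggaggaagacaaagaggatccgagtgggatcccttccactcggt

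Among the genes that fell, Cyp26b1 showed the largest change. It encodes an enzyme that oxidises retinoic acid, and it was at 1.47, 1.19 and 1.23 FPKM in DEX-6h and at 4.43, 13.4 and 17.8 FPKM in SAP-6h. The DEX-6h rats were alike and the SAP-6h rats spread widely, but without overlap (log2 fold change -3.18, SE 0.67, adjusted p = 0.023). The Sham-6h mean of 8.77 FPKM lay within the range of SAP-6h. Tril, an accessory protein of Toll-like receptor 4, was at 0.98, 1.77 and 2.16 FPKM against 6.57, 5.65 and 6.69 FPKM (log2 fold change -1.96, SE 0.30, adjusted p = 0.00329). Plin2, which coats lipid droplets, was at 24.4, 24.3 and 25.5 FPKM against 43.7, 62.5 and 67.2 FPKM (log2 fold change -1.22, SE 0.20, adjusted p = 0.00589). Syt15, a synaptotagmin, was at 0.31, 0.52 and 0.57 FPKM against 1.24, 1.62 and 1.77 FPKM (log2 fold change -1.73, SE 0.27, adjusted p = 0.00329). For Tril, Plin2 and Syt15 the calls held whichever library was left out, whereas Cyp26b1 kept its call only without replicate 1 of SAP-6h.

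The down-regulated DEGs also included Dll4, Sox18, Plxnd1 and Ccnd1. Dll4, the Notch ligand of sprouting endothelium, was at 9.74, 6.03 and 6.42 FPKM in DEX-6h and at 22.2, 16 and 16.4 FPKM in SAP-6h (log2 fold change -1.31, SE 0.23, adjusted p = 0.00952). Sox18, a transcription factor of endothelial cells, was at 19.1, 21.7 and 23.9 FPKM against 47.4, 56.5 and 42.8 FPKM (log2 fold change -1.19, SE 0.24, adjusted p = 0.0204). Its mean was 95.5 FPKM in Sham-6h, so that it was lowest in DEX-6h. Plxnd1, a semaphorin receptor of vessels, was at 3.12, 3.83 and 4.04 FPKM against 9.12, 9.53 and 9.56 FPKM (log2 fold change -1.37, adjusted p = 0.03). Of the 12 endothelial markers tested (of 13), Sox18 was the only DEG, where 0.245% of all genes tested were called lower. In the model of the 6 h groups Sox18 was not a DEG. Of the 12 markers, 7 were below 0 and 5 above, with a median log2 of -0.10, and Emcn was at 0.73 (adjusted p = 0.149). Ccnd1, which encodes cyclin D1 and drives cells from G1 into S phase, was at 15.4, 29.9 and 26.7 FPKM against 55.0, 65.2 and 64.5 FPKM (log2 fold change -1.36, SE 0.26, adjusted p = 0.0112). None of the 19 proliferation genes tested (of 20) was called, with 0 higher and 0 lower at an unadjusted p under 0.05 as well (edgeR). Dll4 lost its call only without replicate 3 of DEX-6h. Ccnd1 lost it without replicate 1 of DEX-6h and without replicate 2 or 3 of SAP-6h, Sox18 without these and replicate 3 of DEX-6h, and Plxnd1 in all 6 fits.

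**Figure D3:**
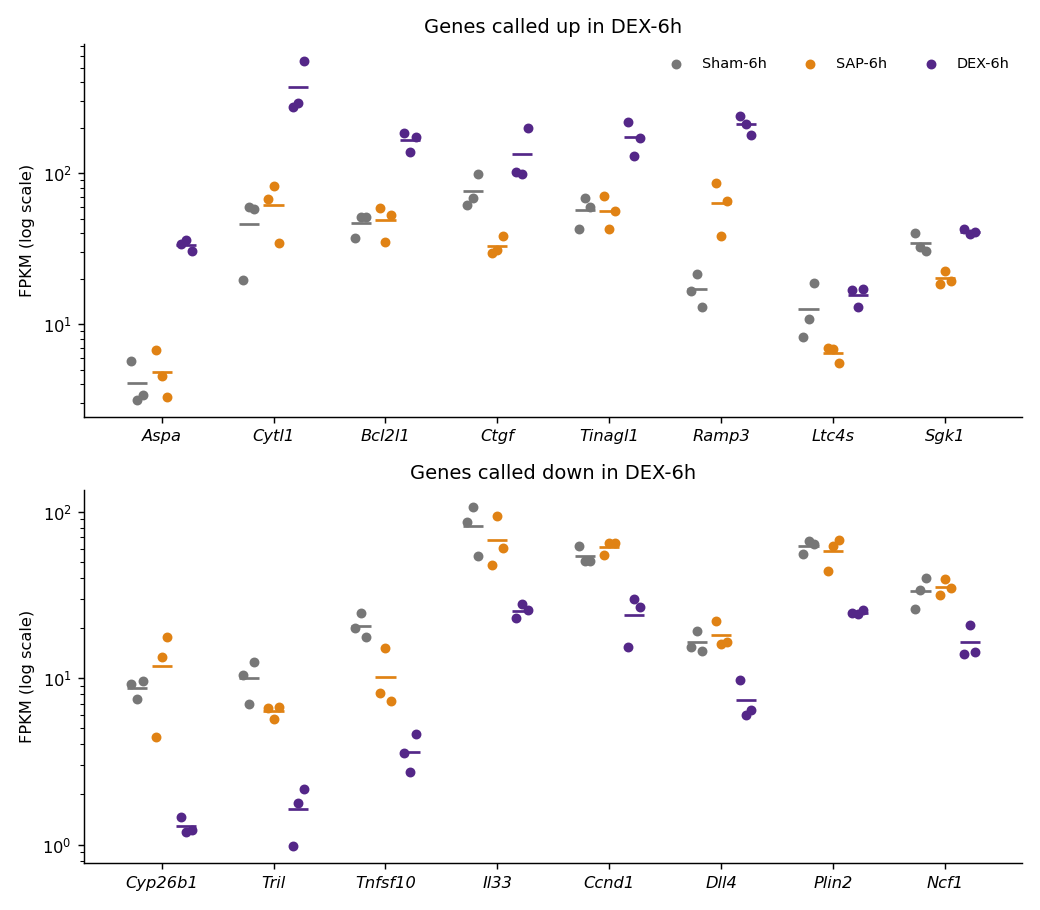
FPKM on a log scale (y axis) of 8 up-regulated and 8 down-regulated genes (x axis), with each point 1 rat of Sham-6h, SAP-6h or DEX-6h and each bar the group mean. Every DEX-6h rat lies above the SAP-6h rats in the upper panel and below them in the lower panel.

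Several genes of immune signalling were lower. Il33, an alarmin stored in the nuclei of barrier cells, was at 22.9, 27.9 and 25.5 FPKM against 47.5, 94.6 and 60.5 FPKM (log2 fold change -1.40, SE 0.30, adjusted p = 0.0247). Tnfsf10, the death ligand TRAIL, was at 3.54, 2.71 and 4.59 FPKM against 8.12, 15.2 and 7.26 FPKM (log2 fold change -1.50, SE 0.30, adjusted p = 0.017), and at a mean of 20.7 FPKM in Sham-6h. Il15, a growth factor of natural killer (NK) and memory T cells, was at 3.64, 6.49 and 5.5 FPKM against 9.45, 18.2 and 9.53 FPKM (log2 fold change -1.25, adjusted p = 0.0385). P2ry6, a receptor for uridine diphosphate, was at 1.01, 1.15 and 0.92 FPKM against 2.50, 3.43 and 2.51 FPKM (log2 fold change -1.45, adjusted p = 0.0379). Fcer1a, the alpha chain of the IgE receptor, was the only one of 9 mast cell markers to be called, at 0.11, 0.12 and 0.08 FPKM against 0.54, 1.15 and 0.67 FPKM (log2 fold change -2.91, SE 0.71, adjusted p = 0.0483). Of all genes tested, 0.245% were called lower. Of the 9 markers, 6 were below 0 and 3 above, with a median log2 of -0.39. The protease genes Cpa3 and Cma1 were at log2 -0.70 and -0.51 (adjusted p = 0.656 and 0.743), whereas Kit, the receptor of stem cell factor, and the tryptase gene Tpsab1 were at log2 0.68 and 1.13 (adjusted p = 0.253 and 0.562), both without overlap. Without overlap, 4 of the 9 were lower and 2 higher (8.74% and 8.75% of all genes). Ncf1, a subunit of the NADPH oxidase of phagocytes, and Elk3, an ETS transcription factor, were also lower and were named after their values were seen. Ncf1 was at 13.9, 20.9 and 14.4 FPKM against 31.6, 39.3 and 34.9 FPKM (log2 fold change -1.10, adjusted p = 0.0457), and kept its call only without replicate 2 of DEX-6h. Elk3 was at 11.0, 12.4 and 14.1 FPKM against 22.7, 29.1 and 27.2 FPKM (log2 fold change -1.08, SE 0.16, adjusted p = 0.00329), and lost its call only without replicate 1 of DEX-6h. In such bulk samples, fewer cells of a type and less RNA per cell cannot be told apart. Tnfsf10 kept its call in 3 of the 6 fits, Il33 and Il15 in 2, and P2ry6 and Fcer1a in none, and all 5 lost it without replicate 1 of DEX-6h and without replicate 2 of SAP-6h. Fcer1a was also not called in a fit with a replicate block or in a fit with no low count filter.

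The list of 16 tested cytokines (of 21) contained these 2 DEGs, Il33 and Tnfsf10, and no up-regulated one, where 0.245% and 0.27% of all genes were called. Its median log2 fold change was -0.26, with 12 members below 0 (53.1% of all genes were) and 4 above. Il1b, the cytokine made by activated myeloid cells, was at 6.83, 6.12 and 4.39 FPKM against 22.7, 24.8 and 14.4 FPKM, a log2 fold change of -1.83 that did not pass the test (SE 0.70, adjusted p = 0.25). The groups did not overlap, and in a model of these 6 libraries alone its adjusted p was 0.0339, while Tnfsf10 lost its call there and Il33 kept it. Il1b was not called by DESeq2 (adjusted p = 0.163) or in the model of the 6 h groups (0.18). Il1a, at log2 0.66, and Csf2, at log2 1.01, pointed the other way, with adjusted p of 0.67 and 0.243. With 1 library left out, Csf2 ran from log2 0.76 to 1.60 and was called in no such fit. Il6 stayed at or below 0.15 FPKM in all 6 libraries, and Tnf, Il10 and Ifng had too few reads to be tested.

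None of the 30 chemokine genes was called (edgeR), and 4 were lower at an unadjusted p under 0.05, as were 6.38% of all genes. DESeq2 called 1 lower, Xcl1, and 0.42% of all genes. However, 27 of the 30 had a log2 fold change below 0, against 53.1% of all genes, and the median was -0.37. Of the 30, 14 did not overlap, with lower values in DEX-6h, against 8.74% of all genes. Xcl1, a chemokine of NK and T cells, was at 0.58, 0.06 and 0.05 FPKM against 1.31, 2.09 and 1.71 FPKM (log2 -2.83, adjusted p = 0.126). With 1 library left out, its log2 fold change ran from -4.79 to -2.33. Ccl2, which attracts monocytes, was at 0.19, 0.21 and 0.03 FPKM against 0.67, 1.14 and 0.97 FPKM (log2 -2.66, adjusted p = 0.323). Ccl5 was far more abundant, at 124, 178 and 127 FPKM against 251, 189 and 199 FPKM (log2 -0.58, adjusted p = 0.776). The neutrophil chemokine Cxcl1 was at 9.81, 5.05 and 6.17 FPKM against 6.27, 4.55 and 4.16 FPKM, so its groups overlapped. Cxcl1 and Il6 were named after their values were seen.

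No marker on the lists of cytotoxic, T and B cells, of macrophages or of MHC class II was called by edgeR over the 30 libraries, but most had log2 fold changes below 0, as did 53.1% of all genes tested (46.9% were above 0). All 13 tested markers of cytotoxic and NK cells (of 14) had a log2 fold change below 0, with a median of -0.88. Their summed level was 47.8 to 73.6 FPKM in DEX-6h and 118 to 148 FPKM in SAP-6h. Prf1, the pore-forming perforin, was at 10.7, 10.1 and 8.62 FPKM against 28.1, 25.4 and 22.4 FPKM (log2 -1.37, SE 0.62, adjusted p = 0.36), and Gzma, a granule protease, at 3.02, 3.44 and 1.44 FPKM against 14.2, 15.7 and 7.69 FPKM (log2 -2.25, SE 0.89, adjusted p = 0.27). These groups were well apart, yet no member was called in the model of 30 libraries, where the spread of all groups is shared, and 4 were lower at an unadjusted p under 0.05 (6.38% of all genes were). In a model of the 6 libraries alone, which called 47 genes lower (0.313%), 3 were called, namely Gzma, Gzmm and Prf1, and DESeq2 over all libraries called none. Of the 10 tested genes of MHC class II presentation, 9 were below 0 (median -0.79, 6 at an unadjusted p under 0.05, against 6.38% of all genes). This list also holds the receptor genes Flt3 and Xcr1. Its summed level was 1819 to 1935 FPKM in DEX-6h and 2171 to 2406 FPKM in SAP-6h. Ciita, the master regulator of MHC class II genes, was at 1.90, 1.78 and 1.91 FPKM against 3.71, 3.34 and 3.93 FPKM (log2 -0.98, adjusted p = 0.133). Of 18 macrophage and monocyte markers, 15 were below 0 (median -0.56, 7 at an unadjusted p under 0.05), among them Cx3cr1 at 0.92, 0.80 and 0.63 FPKM against 2.90, 2.35 and 1.76 FPKM (log2 -1.58, adjusted p = 0.126). Other fits called some members of these lists. DESeq2, which called 0.42% of all genes lower, called Ccr2 and Cx3cr1 (adjusted p = 0.0354 and 0.0428) and the MHC class II list's Xcr1 (0.0349). The model of the 6 libraries alone called Itgam, RT1-Bb and Xcr1. A model of the 6 h groups, which called 0.227% of all genes lower, called Cx3cr1 (0.0348). The T cell list showed 17 of 19 tested members below 0 (median -0.38). By contrast, 7 of 16 neutrophil markers were above 0 and 9 below (median -0.20), none of them at an unadjusted p under 0.05. Of 14 tested B and plasma cell markers, 12 were below 0 (median -0.24, none at an unadjusted p under 0.05). All 6 red blood cell markers were below 0 too, and their median of -1.15 was the lowest of the 35 lists, with none at an unadjusted p under 0.05, although without replicate 2 of DEX-6h the markers Ahsp and Slc4a1 were called lower. The part of these cell types in the values of cytokines and chemokines was not tested.

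Known glucocorticoid targets mostly had log2 fold changes above 0, and 1 of them was called by edgeR over the 30 libraries, where 0.27% of all genes were called higher. Of 30 genes tested (28 symbols of 29), 26 had a log2 fold change above 0 (46.9% of all genes did) and the median was 0.69, the highest of the 35 lists. The DEG was Sgk1, the kinase that keeps the sodium channel ENaC at the cell surface. It was at 43.0, 39.3 and 41.0 FPKM in DEX-6h and at 18.6, 22.6 and 19.4 FPKM in SAP-6h (log2 fold change 1.02, SE 0.20, adjusted p = 0.0158), and the Sham-6h mean was 34.5 FPKM. Another 4 genes differed by more than 2-fold but missed the threshold of adjusted p. Cdkn1a, the cell cycle inhibitor p21, was at 362, 243 and 278 FPKM against 131, 85.7 and 119 FPKM (log2 1.39, adjusted p = 0.166). Fkbp5, which feeds back on the receptor, was at 216, 167 and 208 FPKM against 103, 68.4 and 70.4 FPKM (log2 1.28, adjusted p = 0.176). Errfi1, an inhibitor of EGF receptor signalling, was at 207, 175 and 176 FPKM against 100.1, 67.8 and 69.0 FPKM (log2 1.23, adjusted p = 0.0871). Pdk4, which blocks pyruvate dehydrogenase, was at 49.3, 41.6 and 73.1 FPKM against 22.4, 24.4 and 26.4 FPKM (log2 1.15, adjusted p = 0.114). None of these 4 genes overlapped between the groups, where 8.75% of all genes were higher without overlap. The model of the 6 libraries alone, which called 50 genes higher (0.333%), called all 4, which made 5 of the list with Sgk1. The same 5 were called in a model of the 6 h groups, which called 0.395% of all genes higher. DESeq2 over all libraries called 4 (these without Fkbp5), and 0.527% of all genes higher. Tsc22d3 was not called either, at log2 0.75 in 1 entry (adjusted p = 0.113, and 0.0273 but below 2-fold with DESeq2) and 0.37 in the other (adjusted p = 0.716). Per1 overlapped, at 36.6, 36.5 and 45.9 FPKM against 40.3, 24.9 and 32.9 FPKM (log2 0.26, adjusted p = 0.696), and Angptl4 pointed down (log2 -0.81, adjusted p = 0.225). The receptor gene itself, Nr3c1, was at 8.69, 8.01 and 9.04 FPKM against 9.16, 12.6 and 11.3 FPKM in its more abundant entry (log2 -0.36, adjusted p = 0.176). Sgk1 lost its call without replicate 1 of DEX-6h and without replicate 2 or 3 of SAP-6h. Cdkn1a and Fkbp5 were chosen after their values were seen.

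**Figure D4:**
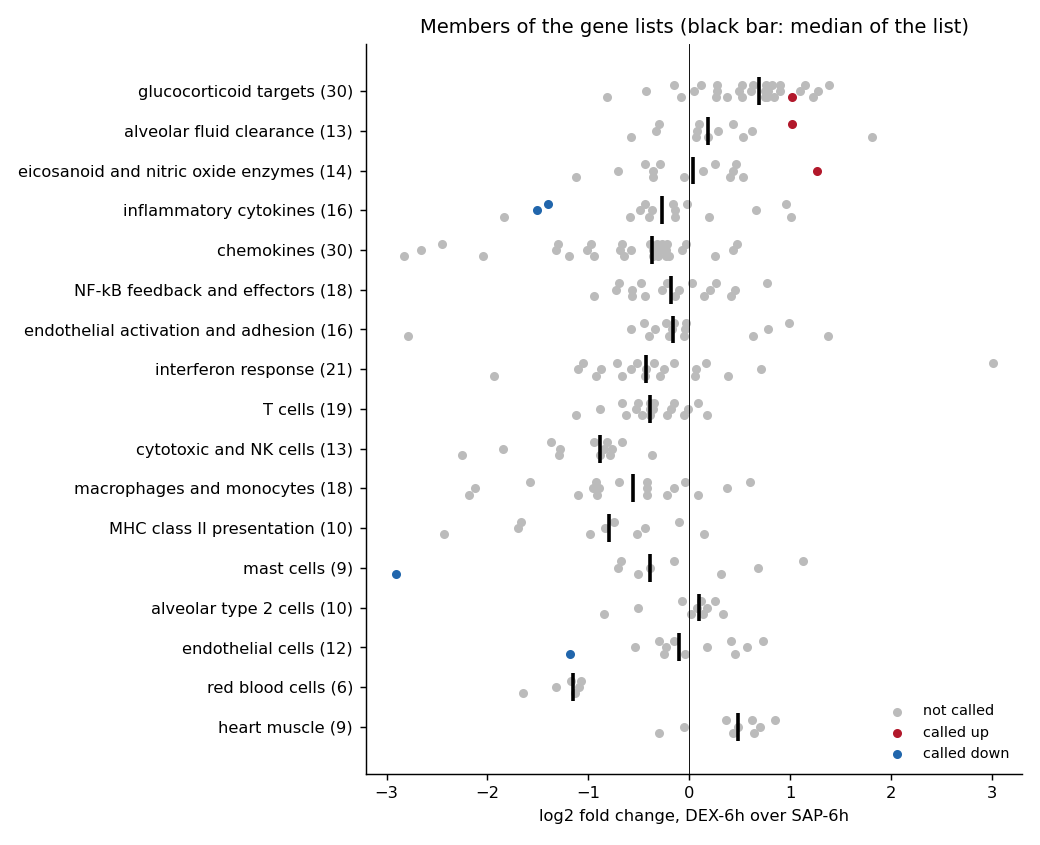
Each point is a tested member of 1 of 17 gene lists (y axis, with the number tested), placed by its log2 fold change of DEX-6h over SAP-6h (x axis), and the black bar is the median of the list. The median lay at 0.69 for glucocorticoid targets and at -0.88 for markers of cytotoxic and NK cells, and DEGs are coloured.

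Lists of fluid transport and NF-kB feedback genes held 1 DEG. Of 13 genes of alveolar fluid clearance, Sgk1 was the only DEG, where 0.27% of all genes tested were called higher. Aqp3, a water and glycerol channel, was at 142, 169 and 252 FPKM against 64.8, 46.2 and 47.0 FPKM (log2 1.81, SE 0.76, adjusted p = 0.306, and 0.0307 in a model of the 6 libraries alone), and the channel subunit Scnn1a at log2 0.07. Aqp3 was not called by DESeq2 (adjusted p = 0.206) or in the model of the 6 h groups (0.396). Of 18 genes of NF-kB feedback, none was called and 11 were below 0 (edgeR, with 2 higher and 5 lower at an unadjusted p under 0.05), where 53.1% of all genes were below 0, and 5.72% were higher and 6.38% lower at that p. Nfkbia, the inhibitor of NF-kB, was at 689, 596 and 576 FPKM against 449, 316 and 320 FPKM (log2 0.77, adjusted p = 0.35), whereas Tnfaip2 was at log2 -0.95 (adjusted p = 0.0605). The 21 interferon response genes tested (of 22) spanned log2 -1.93 to 3.01, with 15 below 0 and 6 above and a median of -0.42. Without overlap, 5 were lower and 0 higher (8.74% and 8.75% of all genes). None was called (edgeR), with 1, Irf1, lower at an unadjusted p under 0.05 and none called by DESeq2.

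The changes at 6 h were then followed at 24 h, where other rats were compared. No library is shared by the comparisons at 6 h and 24 h, but both rest on the same estimate of spread per gene, from all 30 libraries. The calls at both times are thus not independent of each other. Of the 43 genes up-regulated at 6 h, 38 were also higher in DEX-24h than in SAP-24h (88.4%, against 50.2% of all genes tested), and 14 of them were DEGs there (32.6%, against 1.18% of all genes). Of the 39 down-regulated genes, 33 were also lower at 24 h (84.6%, against 49.8% of all), and 18 were DEGs there (46.2%, against 2.55% of all). No gene was a DEG in opposite directions. The median log2 fold change was 1.30 at 6 h and 0.74 at 24 h for the first set, and -1.31 and -0.999 for the second. Since the genes were chosen by their values at 6 h, the smaller medians at 24 h are not read as a weaker effect. Aspa (log2 2.40 at 24 h, adjusted p = 0.000635), Cytl1 (2.40), Ctgf (2.03), Sgk1 (1.92) and Cyp26b1 (-3.56) were DEGs at both times. Ramp3 (0.26), Ppp1r1b (0.01) and Tril (-0.58) were not DEGs at 24 h. The comparison as a whole gave 594 DEGs at 24 h (3.73%), after 2 doses. The effect itself differed between the times in 22 genes (0.138%) by the interaction term. Of the 82 DEGs these were Syt15, Sox18 and Arhgap20, with log2 fold changes of -1.73, -1.19 and -1.30 at 6 h and of 0.10, 0.53 and 0.28 at 24 h. The 22 fell to 0 without replicate 2 of SAP-6h (edgeR, with 629 at an unadjusted p under 0.05).

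**Figure D5:**
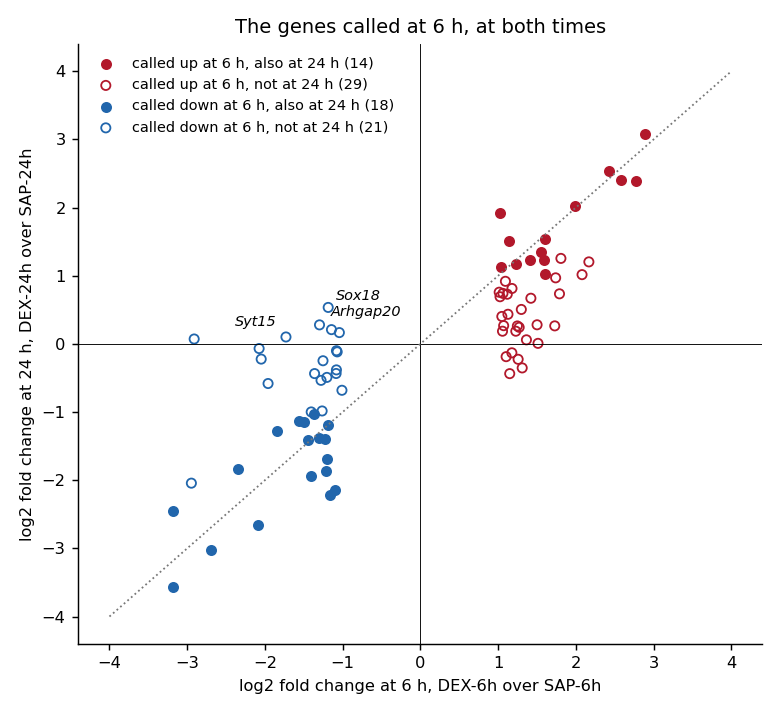
Log2 fold change of DEX over SAP at 6 h (x axis) and at 24 h (y axis) for the 82 DEGs of 6 h, filled where the gene was also a DEG at 24 h, with a dotted line of equal change. The 3 named genes, all lower at 6 h and between 0.10 and 0.53 at 24 h, are those whose effect differed between the times by test.

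Emodin at the same time gave another picture. Emo-6h differed from SAP-6h in 4 genes (0.0251%), and from DEX-6h directly in 225 (1.41%), with 121 higher (0.759%) and 104 lower (0.653%) in Emo-6h. Since the Emo-6h and DEX-6h comparisons with SAP-6h share the SAP-6h rats, only the direct test is read. Aspa was at 2.88, 2.55 and 3.27 FPKM in Emo-6h, below all DEX-6h rats (log2 -3.53, SE 0.40, adjusted p = 8.96e-05). Cytl1 was at 41.0, 76.4 and 44.4 FPKM in Emo-6h (log2 -2.79, adjusted p = 0.0131). Xcl1 was higher, at 1.80, 2.65 and 11.2 FPKM (log2 4.44, SE 0.86, adjusted p = 0.00814). Gzma was at 17.0, 12.9 and 118 FPKM and Gzmm at 28.3, 21.4 and 110 FPKM in Emo-6h, in each case far higher in replicate 3. Cxcl10, an interferon-induced chemokine, was at 1.95, 1.00 and 268 FPKM, so that its log2 difference of 6.94 rested on replicate 3 and was 0.98 without it. The count of 225 fell to 45 without replicate 1, to 146 without replicate 2 and to 82 without replicate 3 of DEX-6h, and to 126 without replicate 1 of Emo-6h. Aspa and Xcl1 kept their calls whichever library was left out, and Gzma, Gzmm and Cxcl10 lost theirs without replicate 3 of Emo-6h and without each of the DEX-6h replicates. Cytl1 lost its call without replicate 3 of DEX-6h, and without replicate 1 or 3 of Emo-6h.

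Of the 2 down-regulated lncRNAs, AABR07064373.1 on chromosome 6 was at 16.8, 26.7 and 20 FPKM against 35.5, 40.8 and 57.5 FPKM (log2 fold change -1.07, SE 0.21, adjusted p = 0.0141), and near SAP-6h in Sham-6h with a mean of 41.6 FPKM. AABR07051555.1 on chromosome 3 was at 6.23, 2.00 and 3.51 FPKM against 11.4, 27.3 and 68.8 FPKM (log2 fold change -3.18, SE 0.73, adjusted p = 0.0347). It stood at 0.33 to 1.53 FPKM in Sham-6h, and SAP-6h was above this level (log2 5.23, adjusted p = 0.00661), as was DEX-6h without passing the test (log2 2.05, adjusted p = 0.0864). The first kept its call in 2 of the 6 fits and the second in 1, both losing it without replicate 1 or 3 of DEX-6h and replicate 2 or 3 of SAP-6h.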

How the data were processed

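Lung RNA of 30 rats in 10 groups of 3 was sequenced from directional polyadenylated libraries. Per the labels and the study's methods, bcl2fastq and TopHat2 were used, with paired reads, 2 mismatches allowed and multi-mapped reads discarded; the counting program is not given in the sources used here. The authors deposited read counts per gene and FPKM (fragments per gene length and library size) of rat Ensembl genes (22914 with counts, 22907 with FPKM), so reads of near-identical genes may be lost or shared.

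From the counts, genes were filtered with filterByExpr (minimum count 10, minimum total 15), scaled by TMM and fitted with edgeR 4.0.16 (R 4.3.3) by the quasi-likelihood test with 1 coefficient per group over all 30 libraries, adjusting p by Benjamini-Hochberg over 15934 genes. A DEG had an adjusted p under 0.05 and at least 2-fold change. FPKM served only to show levels and overlap. Alternatives were RLE scaling, DESeq2 1.42.0, the compared groups alone, other count filters, unadjusted p, no fold limit, a replicate block and each library left out; a model of the 6 h groups was added after seeing the data. The procedure was tested on simulated data.

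Named genes were up to 20 DEGs each way by size of change (at least 1 FPKM in a group, no overlap), and from each gene list the DEGs, the 4 most abundant members and the 4 of lowest p, called lncRNAs, and up to 5 genes each way from the interaction with time and from Emo-6h against DEX-6h. Members and lists were chosen with earlier results of these data known. Promoters came from RefSeq tables of GRCr8, matched by symbol. Some results are not reported here.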

Additional observations from a re-analysis of the deposited data

Results flagged for a closer look

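The effect of DEX on 22 genes differed between 6 h and 24 h by the interaction term (edgeR quasi-likelihood, adjusted p under 0.05 and at least 2-fold). The difference, as the log2 fold change at 24 h minus that at 6 h, was 5.85 for Adh7, 3.01 for Abcb1a, 2.87 for Adh6, 1.83 for Syt15, 1.72 for Sox18 and 1.58 for Arhgap20. It was -2.34 for Fbln1, -2.40 for Adamts9, -2.61 for Adora2a, -2.95 for Mogat2 and -3.83 for Apln. Apln, which encodes the vessel peptide apelin, was at 83.4, 113 and 53.7 FPKM in DEX-6h and at 74.2, 48.0 and 84.3 FPKM in SAP-6h, but at 1.04, 0.79 and 1.45 FPKM in DEX-24h and at 9.96, 10.5 and 15.6 FPKM in SAP-24h. Sox18, lower at 6 h, was at 96.8, 85.5 and 81.2 FPKM against 51.8, 63.0 and 56.5 FPKM at 24 h, a difference that did not pass the test (log2 0.53, adjusted p = 0.181). Of the 12 fits with 1 library left out, Apln kept its call in 8, Adh7 in 7, Syt15 and Adamts9 in 4, Adh6 and Adora2a in 3, Fbln1 and Mogat2 in 2, Sox18 and Arhgap20 in 1, and Abcb1a in none.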

How the results depend on the processing

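The 43 up-regulated and 39 down-regulated genes became 84 and 67 with DESeq2, 191 and 283 at an unadjusted p, and 87 and 69 with no fold limit. Leaving out 1 library gave 1 to 49 up-regulated and 5 to 41 down-regulated genes. The 22 genes with an effect differing between times became 180 with DESeq2, 773 at an unadjusted p, 2 with the compared groups only and 14 with a replicate block, and 0 to 47 with 1 library left out. The 225 genes differing between Emo-6h and DEX-6h became 385, 833, 459 with no fold limit and 89 with the compared groups only, and 45 to 277 with 1 library left out. Rats of the same number did not deviate together (r of 0.0034, -0.16 and 0.21 between DEX-6h and SAP-6h), so the numbers are not read as pairs. The replicate block gave 35 up-regulated and 38 down-regulated genes and kept 71 of the 82 DEGs. The model of the 6 compared libraries alone kept 52 of the 82, that of the 6 h groups 62 and DESeq2 80. None of the 82 DEGs changed sign in an alternative that tested it, whereas the balance of 43 to 39 turned to more lower than higher genes at an unadjusted p, with the replicate block and without replicate 1 of DEX-6h or replicate 2 or 3 of SAP-6h. The median log2 fold change over all genes was -0.0182, and 0.00251 with RLE scaling. The calls within the gene lists were recounted under the alternatives, except at an unadjusted p and with no fold limit. Medians of the lists and their counts of members above or below 0 were not recomputed. With 3 rats a group, the exact test cannot go below 0.1, and genes under 1 FPKM rest on few reads.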
